A study of Mus musculus with 12 samples.

Results

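The 36 genes described here encode the contractile machinery of smooth muscle and of the stress fibres of fibroblast-like cells. They were a named set: 4 actins, 6 myosin chains or myosin kinases, 12 thin filament regulators, 11 crosslinkers, adhesion proteins or LIM proteins, and 3 transcriptional regulators. All 36 were found among the 18193 genes that had a probe set with a single gene symbol. Each was read from its probe set with the highest mean over the 12 arrays. Of the 36, 15 had 1 such probe set and 21 had several, 81 in all.

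The cells were C3H10T1/2, a mouse embryonic mesenchymal line, and total RNA from them was hybridised to Affymetrix arrays. In the over-expression experiment, 3 samples received siRNA-140, a mimic of the microRNA miR-140, and 3 received siRNA-96 as the control. In the suppression experiment, 3 samples received an LNA oligonucleotide against endogenous miR-140 (anti-miR-140), and 3 received one against miR-449 (anti-miR-449) as the control. LNA (locked nucleic acid) oligonucleotides carry a bridged sugar and pair tightly with their microRNA. Both controls are themselves directed at or derived from another microRNA, so no group is untreated, and all 12 samples come from 1 cell line. The labels do not say whether the 3 samples of a group were separate cultures, and the p-values then measure only the spread between these samples, which may be technical. Dose and time after transfection are not given in the sources used here.

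Actin filaments slide past bundles of myosin II when the regulatory myosin light chain is phosphorylated, mainly by myosin light chain kinase. Tropomyosins, calponins and caldesmon lie along the actin filament and set how readily myosin binds it, while filamins, alpha-actinins and vinculin link filaments to each other and to adhesions. Many of these genes are transcribed under serum response factor, SRF, which binds a short DNA element called the CArG box. It acts with coactivators of the myocardin family, among them Myocd and Mrtfa, of which Mrtfa responds to the pool of free actin.

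The CArG box, CC and GG around 6 bases that are each A or T, was searched in RefSeq promoter windows (GRCm38.p6, 250 bases before to 50 bases after each gene's start). The motif reads the same way on both strands, so a single search covers both. A box was found for 9 of the 32 members with a window (28.12%) and for 488 of 27025 genes with a window (1.81%). Windows for Actg2, Tagln, Myh11 and Myocd were not used here. The sequences below are shown because SRF is the shared regulator textbook accounts give for these genes. Each is upstream of the gene's start, on the gene's strand, 5′ to 3′, with the box in capitals.
Acta1, chr8:123894799-123894888, minus strand: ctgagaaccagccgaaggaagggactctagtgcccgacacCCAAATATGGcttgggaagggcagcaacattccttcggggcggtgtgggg
Actc1, chr2:114052876-114052962, minus strand: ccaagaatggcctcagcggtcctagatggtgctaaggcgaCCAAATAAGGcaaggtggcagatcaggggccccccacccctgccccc
Cnn2, chr10:79988504-79988593, plus strand: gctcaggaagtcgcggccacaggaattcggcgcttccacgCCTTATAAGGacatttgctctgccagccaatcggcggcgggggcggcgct
Myl6, chr10:128493010-128493099, minus strand: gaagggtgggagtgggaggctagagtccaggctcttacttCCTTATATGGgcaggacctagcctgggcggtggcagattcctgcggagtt
Myl9, chr2:156775263-156775352, plus strand: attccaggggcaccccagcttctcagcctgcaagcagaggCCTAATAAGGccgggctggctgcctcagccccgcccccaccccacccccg
Vcl, chr14:20929148-20929220, plus strand: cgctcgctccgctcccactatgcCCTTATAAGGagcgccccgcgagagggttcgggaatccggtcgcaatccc
Srf, chr17:46556195-46556284, minus strand: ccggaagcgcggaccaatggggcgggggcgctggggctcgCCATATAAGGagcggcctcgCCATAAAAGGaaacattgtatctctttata

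The boxes began 47 bases before the gene's start in Actc1, 50 in Myl6, 56 in Cnn2, 73 in Acta1, 161 in Myl9 and 227 in Vcl. Srf itself held 2 boxes in 1 window, at 82 and 62 bases before its start. Fhl1 held 1 box, at 102 bases, and Fhl2 held 1 in each of a pair of separate promoters, at 96 and 31 bases. The other 23 members with a window, among them Acta2 and Cald1, had no match to this strict pattern in these 300 bases. The pattern allowed only A or T between CC and GG, so a box with another base there was not counted. The lack of a match thus says nothing about such boxes in the window, or about boxes elsewhere in the gene. A match in sequence is a description and does not show that SRF was bound in these cells.

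**Figure D1:**
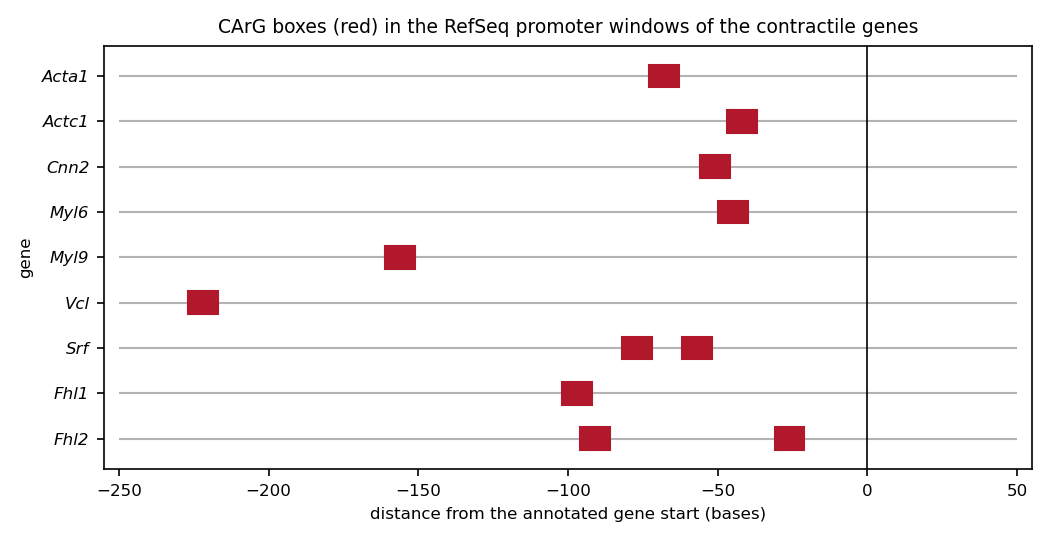
Each line is a member with a CArG box in its promoter window, drawn by distance in bases from the gene's start, and each red box marks a match; the matches of Fhl2 come from separate promoters drawn on 1 line. The matches lie between 227 bases (Vcl) and 31 bases (a promoter of Fhl2) before the start.

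The deposited values are log2 expression values, so a difference of 1 is a 2-fold difference. The mesenchymal markers, a check on the labelled cell type, had array means of 9.63 to 10.30. Vim read 13.38 to 13.71 and Col1a1 13.00 to 13.59 over the 12 arrays, whereas Thy1 read 3.09 to 3.98 and lay under the median probe set of every array. Of the marker lists of other cell types, those of skeletal muscle, epithelium, and endothelium and blood had array means of 3.18 to 3.51, 3.40 to 4.02 and 3.48 to 3.89. The cardiac list had means of 3.75 to 4.41, with Tnnt2 at 6.77 to 7.81. The chondrocyte, bone and fat list was higher, at 5.53 to 6.01. In it the cartilage collagen Col2a1 read 11.77 to 12.25 and the chondrocyte regulator Sox9 8.96 to 9.55. The rest of that list was dimmer. Acan, also a cartilage gene, read 3.36 to 3.99 and lay under the median probe set of every array. Sp7 read 3.76 to 4.27, Ibsp 2.03 to 2.49 and Adipoq 2.03 to 2.69. Pparg read 6.82 to 7.57, Cebpa 6.04 to 7.21 and Fabp4 3.95 to 5.32. Of the members, 32 had a mean at or above the median probe set and 4 did not. Those 4 were Cnn1, Myh11, Myocd and the cardiac actin Actc1. Cnn1 read 2.52 to 3.27, Myh11 2.62 to 3.37 and Myocd 3.05 to 3.53, so these markers of mature smooth muscle were near the bottom of the scale in every group and their changes could hardly be measured. In RNA from whole cultures, fewer cells of a type and less RNA per cell cannot be told apart.

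The 6 siRNA arrays did not divide by label. The first principal component of these arrays carried 53.21% of their variance and placed siRNA-140 replicates 1 and 2 and siRNA-96 replicate 1 at 25.20, 34.18 and 33.11, and siRNA-140 replicate 3 and siRNA-96 replicates 2 and 3 at -28.42, -32.39 and -31.68. Thus 1 array of each label, siRNA-140 replicate 3 and siRNA-96 replicate 1, stood with the arrays of the other label. Single genes showed the same division: Vnn1 read 10.37, 10.51 and 5.52 in the libraries labelled siRNA-140 and 10.04, 5.66 and 5.27 in those labelled siRNA-96, and Postn read 6.61, 6.17 and 10.01 against 6.23, 10.06 and 10.16. The labels were kept. An exchange of these 2 labels is possible and was not tested; had it occurred, each value from all 6 arrays would mix the treatments. Counts and medians over the members are given with all 6 arrays and again without these 2 arrays. Many single genes are given only without them. The choice of these arrays came from the values themselves, and from a profile to which the members contribute, so the p-values from the remaining 4 arrays are not independent evidence about miR-140, and any direction drawn from them rests on the labels of those 4.

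Arrays that stood apart in this way also differed in interferon genes. The mean of 8 interferon genes was 4.15, 4.30 and 6.47 in the libraries labelled siRNA-140 and 4.43, 7.70 and 8.24 in those labelled siRNA-96, against 3.57 to 4.14 over the anti-miR arrays. All 8 were lower in siRNA-140 than in siRNA-96 without the 2 arrays (limma, adjusted p under 0.05, median log2 difference -4.0). Their part in the results on contractile genes was not tested. The 18S ribosomal controls read 5.62, 6.73 and 5.68 in siRNA-140 and 10.47, 5.40 and 7.86 in siRNA-96. They read 5.92, 5.97 and 6.75 in anti-miR-140 and 10.23, 6.24 and 6.33 in anti-miR-449. The difference between 3′ and 5′ probe sets of Actb was 0.16 to 0.36 over the 12 arrays.

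With all 6 siRNA arrays as labelled, no contractile gene differed between siRNA-140 and siRNA-96. Limma called 0 of 36 members and 0 of 45037 probe sets (0%) at an adjusted p under 0.05, and no member's adjusted p was under 0.997. Unadjusted, p was under 0.05 for 437 probe sets that were lower (0.97%) and 577 that were higher (1.28%), with 0 members among them. The member nearest to that limit was Myh9, a heavy chain of nonmuscle myosin II, at 0.0533. The median log2 difference of the members was -0.08, beside 0.02 over all probe sets. Differences were below 0 in 27 of 36 members (75%) and in 43.5% of all probe sets. The labelled groups overlapped in all 36 members, while 6.1% of all probe sets had groups that did not overlap. On these 6 arrays Tagln and Fhl1 each differed by only -0.05. Actn1, Pdlim7, Mylk, Synpo2 and Srf differed by 0.05 to 0.12, and each was below 0 without the 2 arrays.

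These 6 arrays bounded the difference between the labelled groups for most members but not for the most variable ones. Had the 2 labels been exchanged, these intervals would not bound an effect of miR-140. The 95% interval of the difference lay within 1.5-fold in either direction (0.58 on the log2 scale) for 26 members and reached that bound for 10. Without the 2 arrays it lay within the bound for 16 members and reached it for 20. The dim members Cnn1, Myh11, Myocd and Actc1 were among the 26, and for them a narrow interval says little about a change. With all 6 arrays the bounds ran from -2.13, the lower bound for Myl9, to 0.73. Cnn3, the calponin expressed outside smooth muscle, was the most even member. It read 11.80, 11.85 and 11.77 in siRNA-140 and 11.79, 11.79 and 11.82 in siRNA-96, a difference of 0.01 ± 0.10 (SE, n = 3 against 3), so all of its 6 values lay within 0.08.

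**Figure D2:**
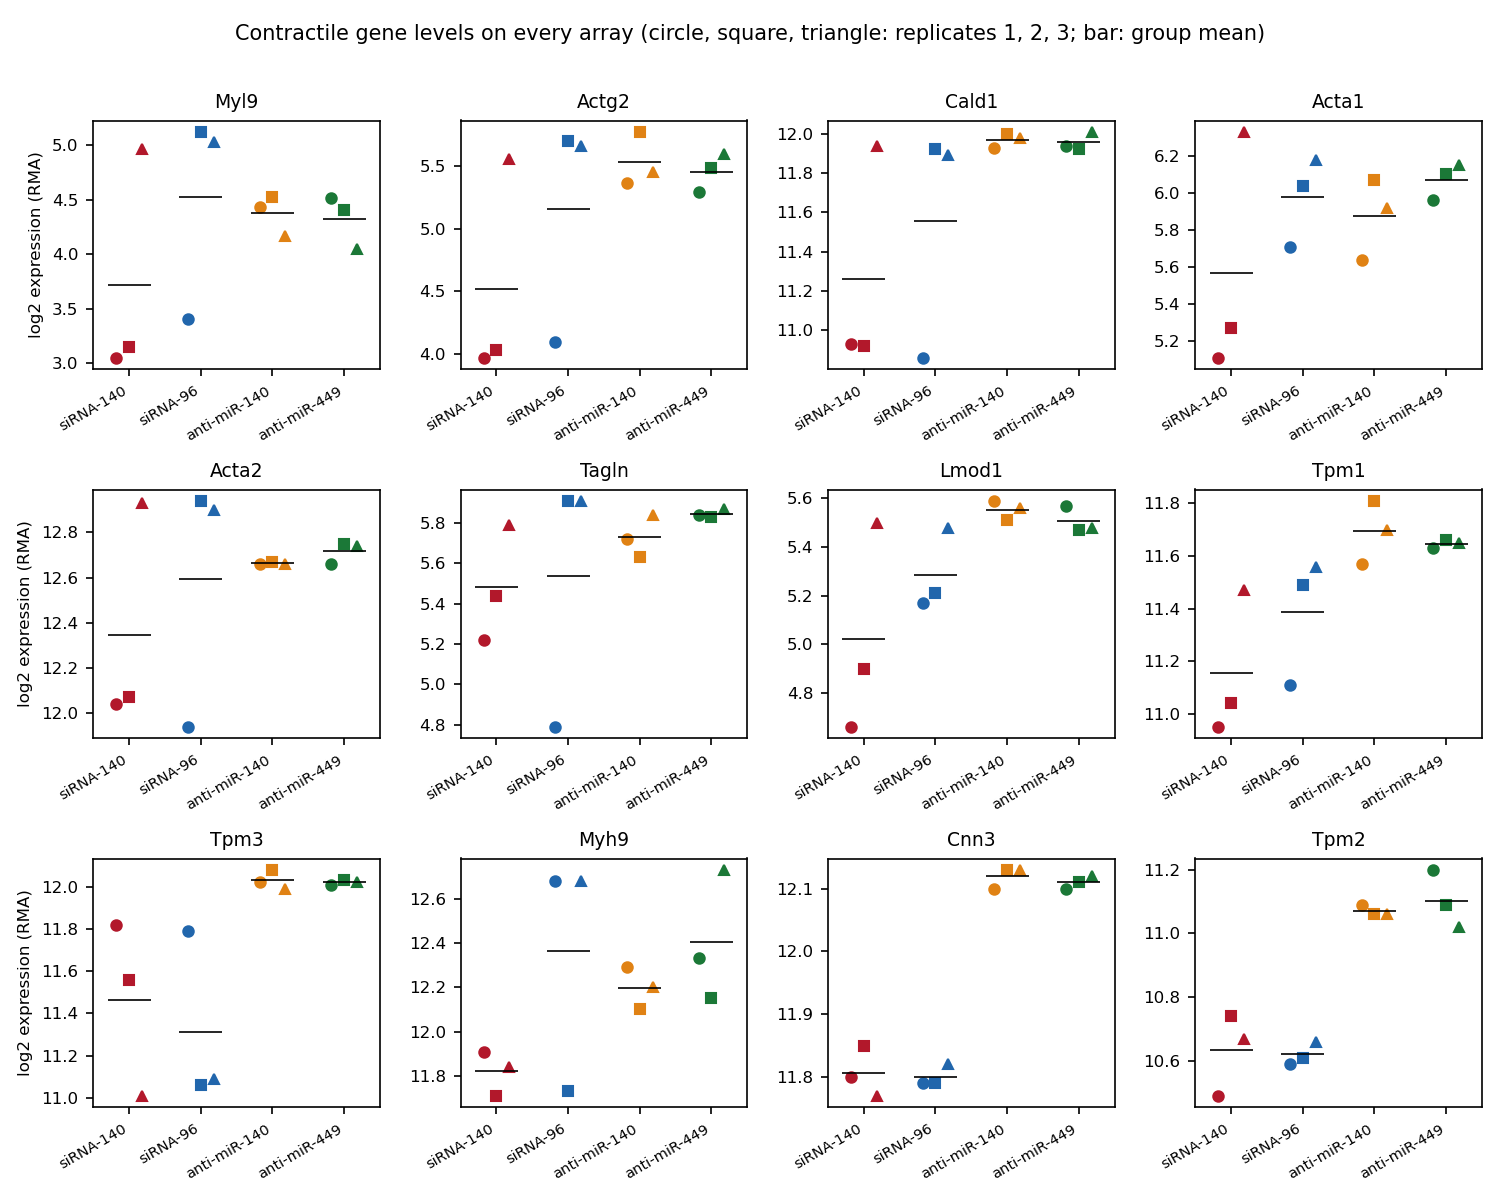
Deposited log2 values of members in each array, by labelled group, for 12 members; the circle, square and triangle are replicates 1, 2 and 3 and the bar is the group mean. In Myl9, Actg2, Cald1 and Acta2 siRNA-140 replicate 3 (red triangle) and siRNA-96 replicate 1 (blue circle) sit with the arrays of the other label. Heights are not compared across the experiments, whose quartiles differ.

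The spread between siRNA arrays was wide for the members themselves. The range over 6 arrays had a median of 0.50 log2 units over members in the siRNA experiment and 0.17 in the anti-miR experiment. It was wider among siRNA arrays in 35 of 36 members, all but Cnn1, and in 70.0% of all probe sets, whose median ranges were 0.43 and 0.31. The ranges of 5 members exceeded 1 log2 unit among siRNA arrays, namely those of Myl9 (2.07), Actg2 (1.73), Acta1 (1.22), Tagln (1.12) and Cald1 (1.08). Among anti-miR arrays 0 did, and the widest was 0.63, of Myh9.

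**Figure D3:**
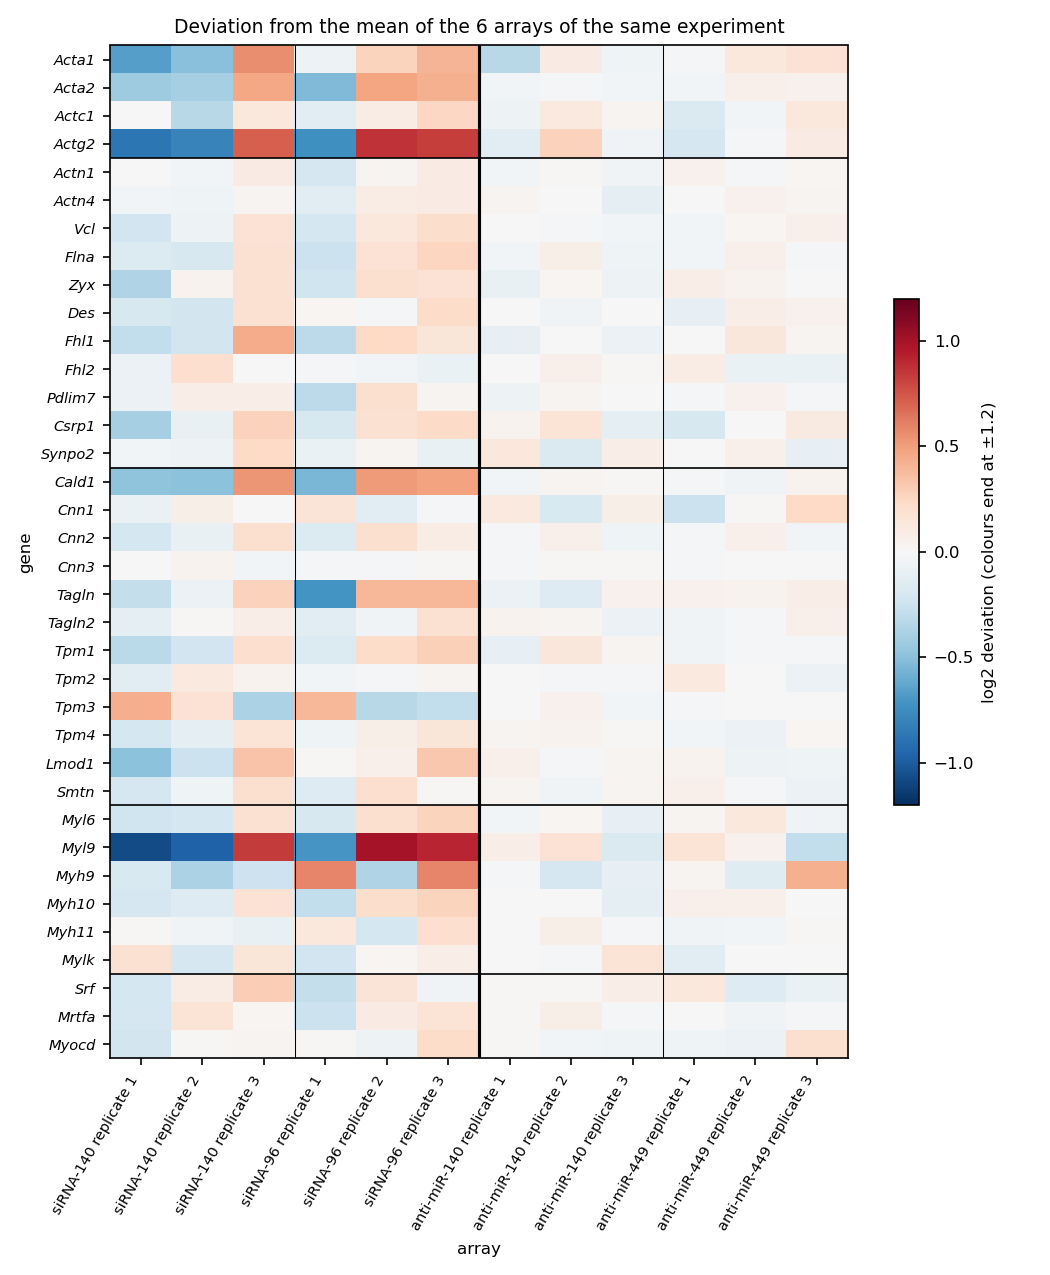
Each row is a member and each column an array; colour gives the log2 deviation from the member's mean within its own experiment. SiRNA-140 replicates 1 and 2 and siRNA-96 replicate 1 are below the mean in most rows, Tpm3 goes the other way, and the anti-miR columns are pale.

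With siRNA-140 replicate 3 and the first siRNA-96 array left out, some of the actins, caldesmon and a regulatory myosin light chain were lower in siRNA-140. With 2 arrays against 2, limma called 5 of 36 members lower (13.9%), beside 1.85% of all probe sets, and 0 higher, beside 2.02%. The 5 were Myl9, Actg2, Cald1, Acta1 and Acta2. The members' median difference was -0.30, beside 0.035 over all probe sets, and 32 of 36 (88.9%) were below 0, beside 42.6%. The members were chosen with earlier results of these data known, and the 2 arrays left out were chosen from the values themselves. The shares in this paragraph are thus not independent evidence about the set. Groups of 2 did not overlap in 22 members that were lower, beside 16.4% of probe sets, and in 1 that was higher, Tpm3, beside 24.9%. When the 6 anti-miR arrays entered the same model to estimate the spread, 12 members were called lower (33.3%, beside 3.85% of probe sets) and 1 higher (beside 5.13%). Among the 18193 genes, each read from its brightest probe set as the members were, 434 were called lower on 4 arrays and 445 higher. With the anti-miR arrays in the model these counts were 883 and 1141.

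Among the actins, 3 of 4 were called lower on 4 arrays, beside 434 of all 18193 genes. The median difference of the 4 was -0.89. Acta2, the actin of smooth muscle and of stress fibres in activated fibroblasts, read 12.04, 12.07 and 12.93 in the libraries labelled siRNA-140 and 11.94, 12.94 and 12.90 in those labelled siRNA-96. Its 6 values fell into a low trio and a high trio, each holding arrays of both labels. With all 6 arrays the difference was -0.25 ± 0.32 (SE), and without the 2 arrays it was -0.87 ± 0.14, or 1.82-fold lower (limma, adjusted p = 0.00718). This probe set, like those of Cald1 and Cnn3, is of a type whose probes may also match related transcripts. Of its other probe sets, both much dimmer, 1 was called lower as well on 4 arrays (adjusted p = 0.031) but not with the anti-miR arrays in the model (adjusted p = 0.498), and 1 was called in neither. Actg2, the enteric smooth muscle actin, read 3.97, 4.03 and 5.55 against 4.10, 5.70 and 5.66. The same 3 arrays were low, by more than 1 log2 unit. Its difference was -0.64 ± 0.52 with all arrays and -1.68 ± 0.14 without the 2 (3.20-fold lower, limma, adjusted p = 0.00013). Its low readings lay at about the median probe set of their arrays, where the fold can understate a change.

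Acta1, the skeletal muscle actin, whose promoter box is printed above, read 5.11, 5.27 and 6.33 against 5.71, 6.04 and 6.18. Here siRNA-96 replicate 1 lay between the low pair and the high trio. The difference was -0.41 ± 0.30 with all arrays and -0.92 ± 0.15 without the 2 (1.89-fold lower, limma, adjusted p = 0.00681). Actc1 read 4.09, 3.76 and 4.22 against 3.97, 4.18 and 4.34, and its difference of -0.34 ± 0.16 without the 2 arrays was not called (limma, adjusted p = 0.382). Actb and Actg1, the cytoplasmic actins, were in the list of actin assembly genes and were not called in any comparison.

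Among the 6 myosin chains and kinases, 1 was called lower on 4 arrays, beside 434 of all 18193 genes, and the median difference was -0.41. Myl9, the regulatory light chain of smooth muscle and nonmuscle myosin II, had the widest range of all members. It read 3.05, 3.15 and 4.96 in the libraries labelled siRNA-140 and 3.41, 5.12 and 5.03 in those labelled siRNA-96. The low and high arrays were again the trios that held both labels. Its difference was -0.80 ± 0.58 with all 6 arrays (95% interval -2.13 to 0.53) and -1.98 ± 0.14 without the 2 (3.93-fold lower, limma, adjusted p = 4.74e-05). Its low readings were under the median probe set of the array, where a log2 difference can understate a change.

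The other myosin chains moved less. Myl6, the essential light chain, read 7.18, 7.21 and 7.60 against 7.22, 7.61 and 7.68, and Myh10, the nonmuscle heavy chain IIB, read 9.26, 9.30 and 9.63 against 9.16, 9.67 and 9.73. Both showed the same low trio. Without the 2 arrays, Myl6 differed by -0.45 ± 0.14 and Myh10 by -0.42 ± 0.14. Neither was called on 4 arrays (limma, adjusted p = 0.128 and 0.16), and both were called lower with the anti-miR arrays in the model (adjusted p = 0.0155 and 0.0189). Mylk, the myosin light chain kinase, differed by -0.06 ± 0.16 and Myh11, the smooth muscle heavy chain, by -0.01 ± 0.17, and neither was called.

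Myh9 did not follow this division. It read 11.91, 11.71 and 11.84 in siRNA-140 and 12.68, 11.73 and 12.68 in siRNA-96, and 12.29, 12.10 and 12.20 in anti-miR-140 and 12.33, 12.15 and 12.73 in anti-miR-449. The control arrays siRNA-96 replicates 1 and 3 and anti-miR-449 replicate 3, were thus the high ones. The 18S controls were high in both of those siRNA-96 arrays (10.47 and 7.86), but not in anti-miR-449 replicate 3 (6.33). They were also high in anti-miR-449 replicate 1 (10.23), where Myh9 read 12.33. Their part was not tested. With all 6 siRNA arrays Myh9 differed by -0.54 ± 0.24. Its 5 probe sets disagreed: 1 other shared the pattern, at -0.71, and the remaining 3 differed by 0.08 to 0.19.

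Of the 12 thin filament regulators, 1 was called lower on 4 arrays, beside 434 of all 18193 genes, with a median difference of -0.26. That was Cald1, caldesmon, which holds myosin off actin. It read 10.93, 10.92 and 11.94 in the libraries labelled siRNA-140 and 10.86, 11.92 and 11.89 in those labelled siRNA-96. Each label held low arrays, between 10.86 and 10.93, and high ones, between 11.89 and 11.94. The difference was -0.29 ± 0.35 with all arrays and -0.98 ± 0.14 without the 2 (1.97-fold lower, limma, adjusted p = 0.0035). Both other probe sets of Cald1 with high readings were called lower as well, by -0.83 and -0.75, and its remaining pair of dim ones was not.

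Tagln, the calponin relative also called SM22, read 5.22, 5.44 and 5.79 against 4.79, 5.91 and 5.91. Lmod1, leiomodin, a nucleator of actin filaments, read 4.66, 4.90 and 5.50 against 5.17, 5.21 and 5.48. In Tagln the lowest array carried the siRNA-96 label, and in Lmod1 the siRNA-140 label. Without the 2 arrays they differed by -0.58 ± 0.15 and -0.57 ± 0.16, which was not called on 4 arrays (limma, adjusted p = 0.0607 and 0.0929) and was called with the anti-miR arrays in the model (adjusted p = 0.00538 and 0.0101). The calponins were not called: Cnn1 differed by 0.07 ± 0.14, Cnn2 by -0.29 ± 0.14 and Cnn3 by 0.02 ± 0.14. Tagln2, the broadly expressed relative of Tagln, differed by -0.12 ± 0.15 and smoothelin, Smtn, by -0.24 ± 0.15, and neither was called.

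The 4 tropomyosins went separate ways. Tpm1 read 10.95, 11.04 and 11.47 in the libraries labelled siRNA-140 and 11.11, 11.49 and 11.56 in those labelled siRNA-96. Tpm3 read 11.82, 11.56 and 11.01 against 11.79, 11.06 and 11.09, and was thus high in the arrays where most other members were low. Without the 2 arrays Tpm1 differed by -0.53 ± 0.14 (limma, adjusted p = 0.0731 on 4 arrays and 0.00747 with the anti-miR arrays in the model). Tpm3 differed by 0.62 ± 0.15, or 1.53-fold higher (adjusted p = 0.0518 and 0.00308). The probe sets of each gene bore this out in part: on 4 arrays, 1 further probe set of Tpm1 was called lower (-0.67) and 2 further probe sets of Tpm3 were called higher (0.69 and 0.91). The dimmest probe set of Tpm3 read 4.23, 4.28 and 4.22 against 4.17, 4.11 and 4.17 and differed by 0.12 (adjusted p = 0.813), and the dimmest of Tpm1 by 0.03, so neither showed the pattern. Tpm2, at 10.49, 10.74 and 10.67 against 10.59, 10.61 and 10.66, differed by -0.02 ± 0.15. Tpm4 differed by -0.27 ± 0.14, and neither was called. Tropomyosin genes give many spliced forms, and single probe sets may read only some of them.

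**Figure D4:**
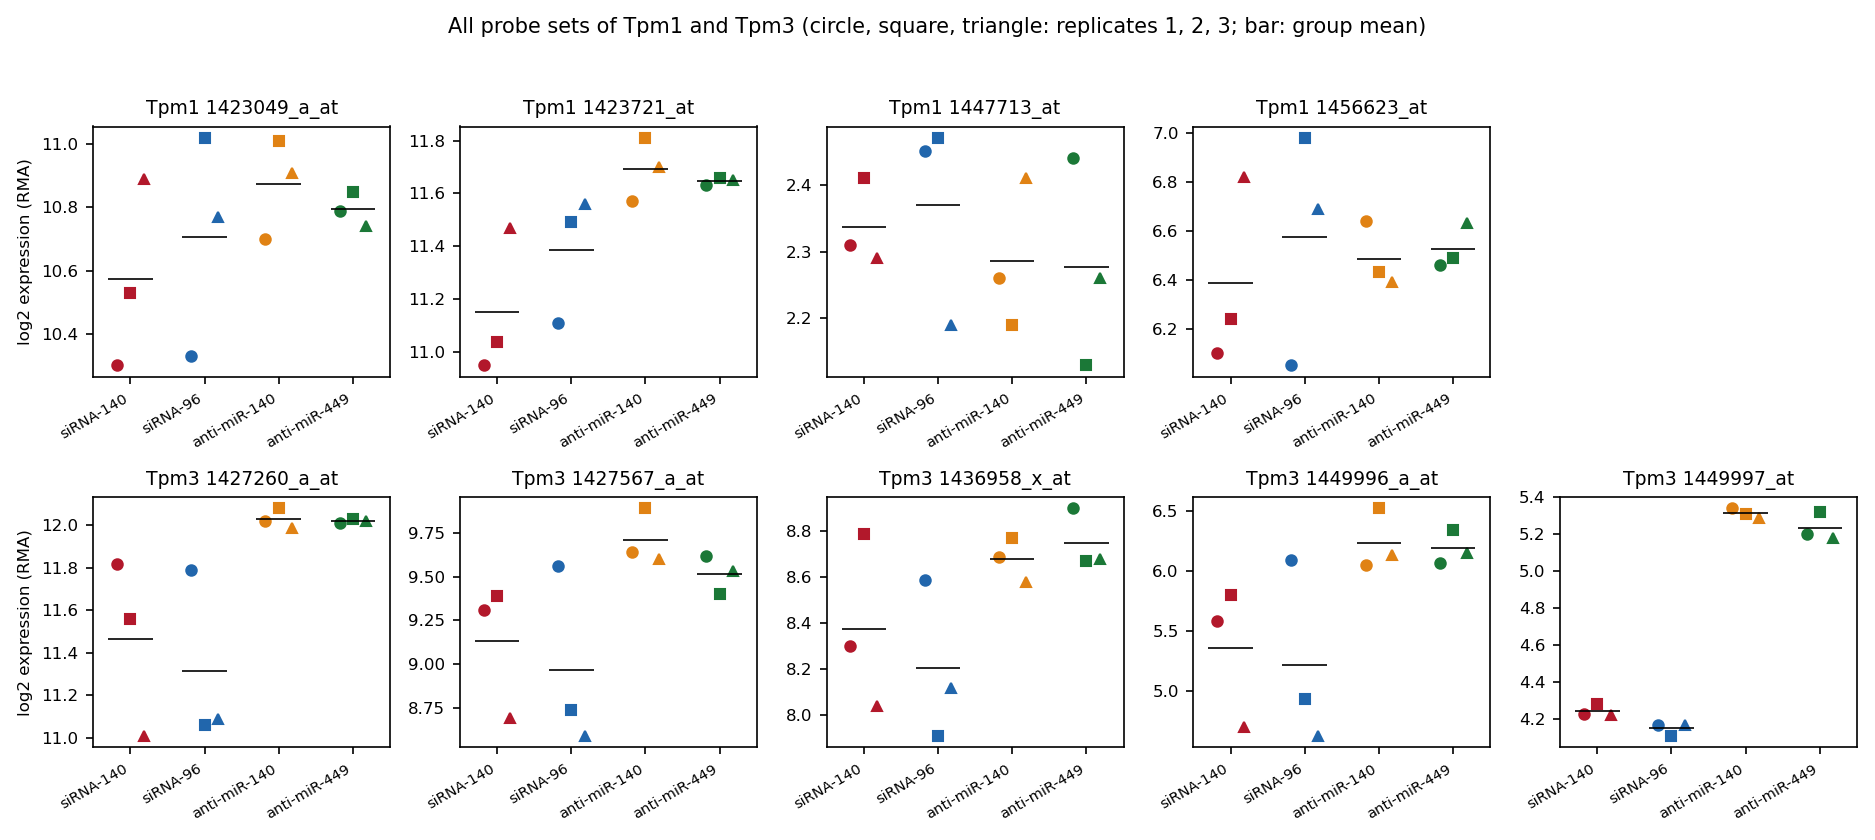
Deposited log2 values of the 4 probe sets of Tpm1 (upper row) and the 5 of Tpm3 (lower row), by labelled group; the circle, square and triangle are replicates 1, 2 and 3 and the bar is the group mean. In 3 panels Tpm1 is low, and in 4 Tpm3 is high, in siRNA-140 replicates 1 and 2 and siRNA-96 replicate 1; the dimmest panel of each gene does not show this.

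None of the 11 crosslinkers, adhesion proteins and LIM proteins was called on 4 arrays, at a median difference of -0.31. With the anti-miR arrays in the model 2 were called lower. Of all 18193 genes, 434 were called lower on 4 arrays and 883 with the anti-miR arrays in the model. Fhl1, a protein of LIM domains, read 6.33, 6.40 and 7.07 in the libraries labelled siRNA-140 and 6.31, 6.86 and 6.77 in those labelled siRNA-96. Filamin A, Flna, which crosslinks actin into networks, read 11.09, 11.06 and 11.43 against 10.99, 11.42 and 11.51. In both, the 3 low arrays were siRNA-140 replicates 1 and 2 and siRNA-96 replicate 1. Fhl1 differed by -0.45 ± 0.14 (limma, adjusted p = 0.132 on 4 arrays and 0.0141 with the anti-miR arrays) and Flna by -0.39 ± 0.14 (adjusted p = 0.20 and 0.0305). Vinculin, Vcl, at -0.32 ± 0.15, zyxin, Zyx, at -0.35 ± 0.17, and desmin, Des, at -0.31 ± 0.15, were not called in either. The alpha-actinins lay closer to 0, Actn1 at -0.08 ± 0.14 and Actn4 at -0.14 ± 0.14. Csrp1, a LIM protein of smooth muscle, differed by -0.45 ± 0.16 and was not called in either (limma, adjusted p = 0.176 and 0.0645), although its other probe set was called with the anti-miR arrays in the model (adjusted p = 0.0187). Fhl2 (0.12 ± 0.15), Pdlim7 (-0.11 ± 0.15) and Synpo2 (-0.02 ± 0.14) were not called and lay near 0.

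None of the 3 transcriptional regulators was called. Srf differed by -0.11 ± 0.16 without the 2 arrays, Mrtfa by -0.15 ± 0.16 and Myocd by -0.19 ± 0.16. For Srf this holds for the brighter probe set, at 7.57, 7.87 and 8.07 against 7.49, 7.93 and 7.73. Its other probe set read 6.82, 6.85 and 7.41 against 6.69, 7.53 and 7.51, and was called lower, by -0.69 (limma, adjusted p = 0.0227). The probe sets of Srf thus did not give a single answer. On 4 arrays, 434 of all 18193 genes were called lower. Members with a match to the strict CArG pattern in the window were called lower in 2 of 9 cases (Acta1 and Myl9). Members without a match were called lower in 2 of 23 (Acta2 and Cald1), and those with no window in 1 of 4 (Actg2). The median differences of these groups were -0.34, -0.24 and -0.38.

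The anti-miR experiment was quieter, and no contractile gene differed between anti-miR-140 and anti-miR-449. Limma called 0 of 36 members and 0 of 45037 probe sets (0%), and no member's adjusted p was under 0.974. Unadjusted, p was under 0.05 for 1150 probe sets that were lower (2.55%) and 998 that were higher (2.22%), again with 0 members. The median log2 difference of the members was 0.005, beside -0.00333 over all probe sets, with 17 below 0 (47.2%, beside 50.6%) and 19 above. Groups did not overlap in 1 member, Fhl1, beside 8.4% of all probe sets. Fhl1 read 7.17, 7.26 and 7.20 in anti-miR-140 and 7.27, 7.40 and 7.30 in anti-miR-449, a difference of -0.11 ± 0.07 that was not called.

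The intervals were narrow for all of the members. For Cnn1, Myh11, Myocd and Actc1, which read below the median probe set, a narrow interval says little about a change of the gene. The standard errors ran from 0.065 to 0.139, with a median of 0.073, and all 36 intervals lay within 1.5-fold, between -0.52 and 0.36. Acta2 read 12.66, 12.67 and 12.66 in anti-miR-140 and 12.66, 12.75 and 12.74 in anti-miR-449, a difference of -0.05 ± 0.07. Cald1 read 11.93, 12 and 11.98 against 11.94, 11.92 and 12.01, a difference of 0.01 ± 0.07. Both groups lay within 0.10 log2 units in each of these genes.

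The members that spread most among siRNA arrays showed small group differences here, although their ranges over the 6 anti-miR arrays, 0.47 for Myl9, 0.48 for Actg2 and 0.51 for Acta1, were above the members' median of 0.17. Myl9 read 4.43, 4.52 and 4.17 in anti-miR-140 and 4.51, 4.40 and 4.05 in anti-miR-449, and its difference was 0.05 ± 0.14. Actg2 read 5.36, 5.77 and 5.45 against 5.29, 5.48 and 5.59, and its difference was 0.07 ± 0.12. Both pairs of groups overlapped. Acta1, at 5.64, 6.07 and 5.92 against 5.96, 6.10 and 6.15, differed by -0.19 ± 0.11. Tpm1 differed by 0.05 ± 0.08 and Tpm3 by 0.01 ± 0.07, and all of the tropomyosin groups overlapped.

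**Figure D5:**
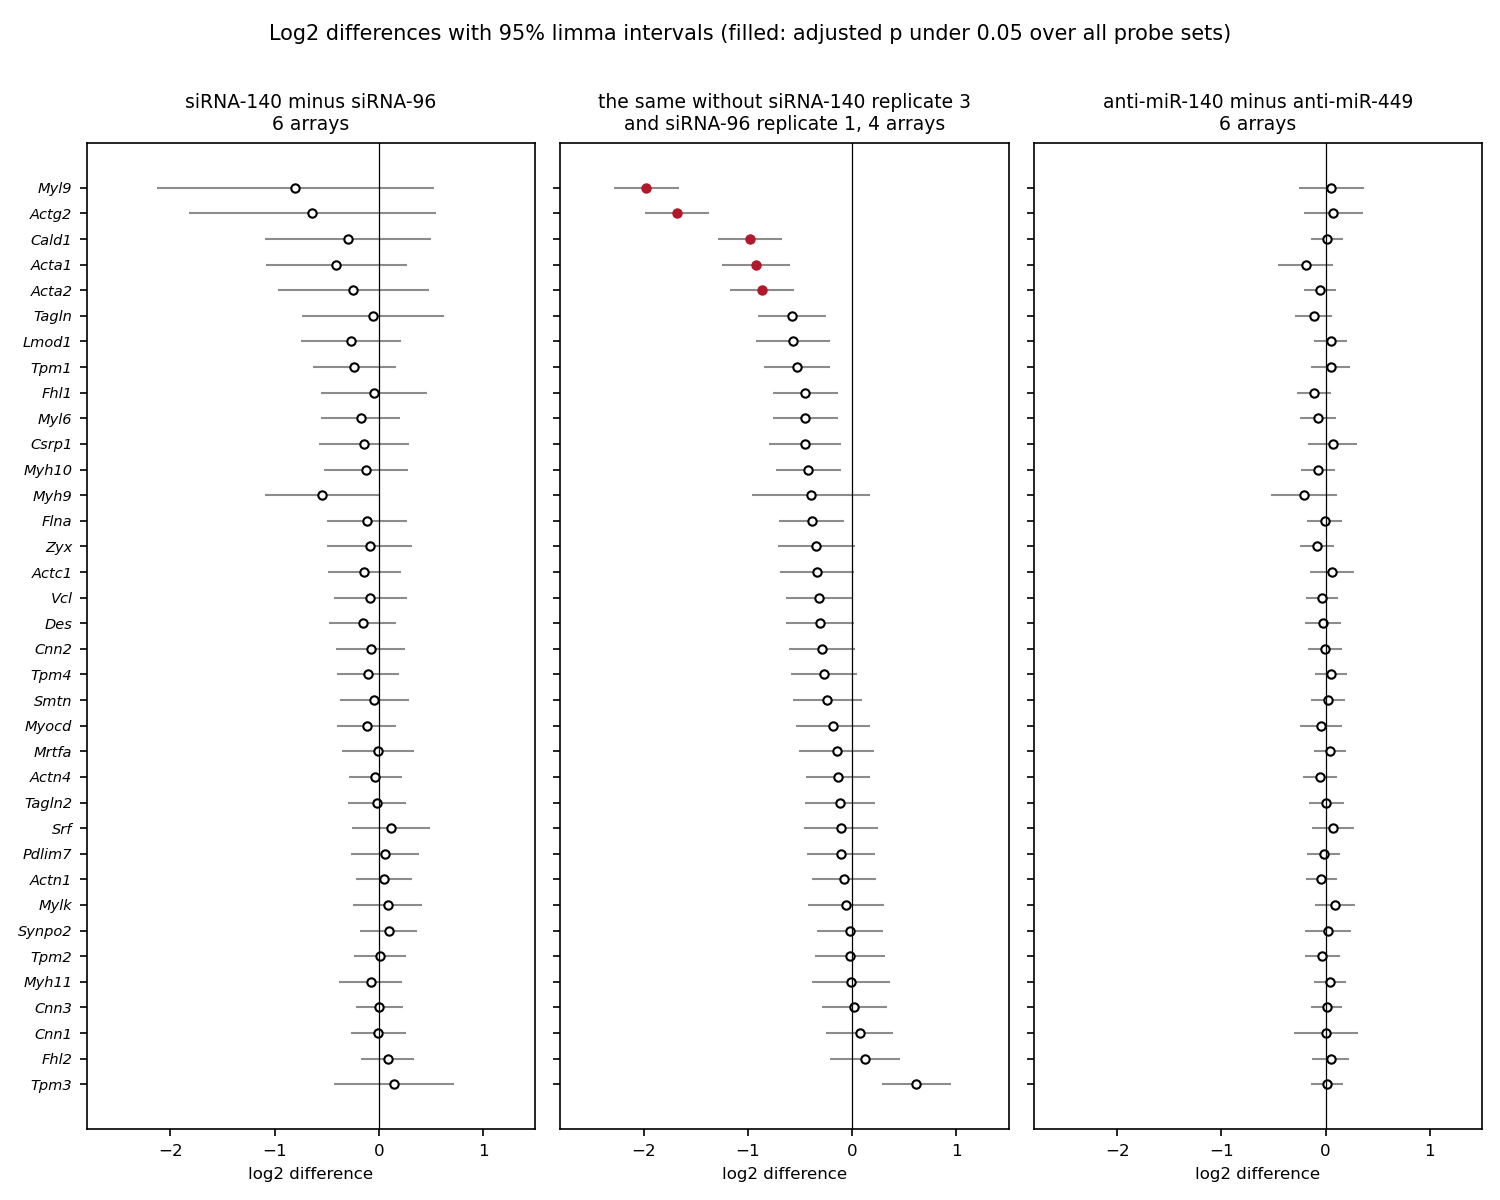
Log2 difference of each member with its 95% interval from limma, for siRNA-140 minus siRNA-96 with all 6 arrays (left), the same without the 2 arrays (middle), and anti-miR-140 minus anti-miR-449 (right); filled points have an adjusted p under 0.05. Intervals of the first comparison cross 0 for every member, those of the last lie close around 0, and without the 2 arrays Myl9, Actg2, Cald1, Acta1 and Acta2 lie farthest below 0.

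The difference between the experiments was tested as the siRNA difference minus the anti-miR difference. With all 12 arrays, limma called 0 of 36 members and 0 of 45037 probe sets (0%), and an unadjusted p under 0.05 was reached by 480 probe sets below 0 (1.07%) and 842 above (1.87%), with 0 members. Without the 2 siRNA arrays, 8 of 36 members were called (22.2%), beside 4.41% of probe sets. Of these, 7 were lower (beside 2.13% of probe sets): Myl9, Actg2, Cald1, Acta2, Acta1, Lmod1 and Tpm1. The other, Tpm3, was higher (beside 2.28%).

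Genes of the same machinery outside the members were read from lists, again without the 2 arrays unless stated, and in the comparisons with all arrays as labelled 0 genes of these lists were called. The counts below stand beside 434 of all 18193 genes called lower on 4 arrays and 445 called higher. Of 31 actin assembly genes and their regulators, 1 was called lower and 2 higher, at a median difference of 0.03. The higher ones were the small GTPases Rhob (0.66 ± 0.14, limma, adjusted p = 0.027) and Rhoa (0.63 ± 0.14, adjusted p = 0.0336). Rhob read 11.61, 11.62 and 11.02 in the libraries labelled siRNA-140 and 11.46, 10.97 and 10.94 in those labelled siRNA-96, so its high arrays were the ones in which Acta2 was low. Ppp1r12b, a targeting subunit of myosin phosphatase, was the lower one (-0.62 ± 0.14, adjusted p = 0.0423). Cfl2, the muscle cofilin, differed by 0.55 ± 0.14 and was not called (adjusted p = 0.062).

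Of 26 focal adhesion, filamin and LIM genes, 2 were called lower and 2 higher, at a median of -0.09. Ldb3, a PDZ and LIM protein of the Z-disc, read 4.75, 4.77 and 6.70 against 4.44, 6.90 and 6.59, and Nexn, the actin-binding nexilin, read 5.16, 4.65 and 6.39 against 4.96, 6.30 and 6.22. Both repeated the low trio of Myl9 and Actg2. Ldb3 differed by -1.99 ± 0.15 and Nexn by -1.36 ± 0.18, whereas Pdlim1 (0.87 ± 0.16) and the integrin Itgb1 (0.63 ± 0.15) were called higher.

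On the same 4 arrays, 434 of 18193 genes were called lower and 445 higher. Of 14 genes reported as targets of MRTF, SRF or YAP, 3 were called lower and 0 higher, at a median of -0.17. They were the growth factor Tgfb2 (-1.88 ± 0.16, limma, adjusted p = 0.000135) and the matricellular proteins Ccn1 (-0.82 ± 0.14, adjusted p = 0.011) and Ccn2 (-0.62 ± 0.14, adjusted p = 0.0384). Egr1 differed by -0.55 ± 0.14 and was not called (adjusted p = 0.0693). Of 19 other smooth muscle genes, 1 was called lower, at a median of -0.04: Pde5a, a phosphodiesterase of cyclic GMP, by -1.01 ± 0.15 (adjusted p = 0.00535). Hey1 (-0.60 ± 0.15), Klf4 (0.51 ± 0.15) and Pln (0.31 ± 0.15) were not called.

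Markers of other cell types were read beside these values. Of all 18193 genes, 434 were called lower and 445 higher on 4 arrays, and 883 and 1141 with the anti-miR arrays in the model. Of 8 cardiac markers, Tnnt2 was called higher (0.77 ± 0.15, limma, adjusted p = 0.02), and the list's array means were 3.89 to 4.0 in siRNA-140 and 3.75 to 4.06 in siRNA-96. Of 6 endothelial and blood markers, Tek was called higher (0.60 ± 0.15, adjusted p = 0.0495). Of 11 skeletal muscle and 7 epithelial markers, 0 were called, and of the 9 chondrocyte, bone and fat markers found, likewise 0. Of 14 mesenchymal markers, Col3a1 was called lower (-1.12 ± 0.14, adjusted p = 0.00153). With the anti-miR arrays in the model, Fn1 (-0.45, adjusted p = 0.0209) and Pdgfra (-0.45, adjusted p = 0.0246) were called lower too, which made 3 of 14, and the counts of the other cell type lists were the same. The part of these genes in the results on the contractile genes was not tested.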

How the data were processed

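The 12 arrays held deposited log2 values made by the authors with RMA, per the submitters' processing notes; no source used here gives its version. RMA corrects background, normalizes between arrays and summarises probes, and values were rounded to 2 decimals. The deposited medians were 3.95 to 4.02 on siRNA arrays and 4.32 to 4.38 on anti-miR arrays, so levels were not compared across the experiments. No array was re-normalized except as an alternative. After 64 array controls were left out, 45037 probe sets were tested with no filter on level. Symbols came from GEO's platform annotation: 34945 probe sets had 1 symbol, 932 several and 9160 none, and only the first kind was named.

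Each experiment's 6 arrays were fitted alone with limma 3.58.1 in R 4.3.3 (lmFit, eBayes), and the difference between experiments with all 12. Probe sets were called under 0.05 after Benjamini-Hochberg adjustment across the whole table, errors are the model's standard errors, and intervals are 95%. The scripts were tested on simulated data. The number of arrays, 3 a group, limits the precision. The labels do not say whether a replicate number marks a shared source. Deviations of same-numbered arrays from their group means correlated at 0.41, -0.24 and 0.44 in the siRNA experiment and -0.01, 0.10 and -0.03 in the anti-miR experiment. Among siRNA arrays these values follow the division of the arrays described above, so they cannot show whether the numbers pair samples. The genes named are the 36 members and, from each other list, up to 4 with the smallest p in the siRNA comparison without the 2 arrays. Further list genes were named outside this rule, among them Vim, Thy1, Actb, Actg1 and the whole chondrocyte, bone and fat list. Array values are printed for members called in any model, for the most even ones and for some others, among them Actc1, Myh9 and Srf. The members and lists were chosen with earlier results of these data known. Lists were written from general knowledge. Some genes of these lists are not reported here. Alternatives changed the arrays fitted, the normalization, the filter, the variance model, array weights, the replicate block, the arrays left out and the rule for several probe sets.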

Additional observations from a re-analysis of the deposited data

Results flagged for a closer look

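With siRNA-140 replicate 3 and the first siRNA-96 array left out, 8 contractile genes differed more between siRNA-140 and siRNA-96 than between anti-miR-140 and anti-miR-449 by a test of the difference itself (limma, 10 arrays, adjusted p under 0.05). They were 22.2% of the 36 members, beside 4.41% of all probe sets. The arrays left out were chosen from the values themselves, so these p-values are not independent evidence. The siRNA difference minus the anti-miR difference was -2.03 ± 0.20 for Myl9, -1.75 ± 0.18 for Actg2, -0.99 ± 0.13 for Cald1, -0.81 ± 0.13 for Acta2, -0.73 ± 0.18 for Acta1, -0.61 ± 0.16 for Lmod1, -0.58 ± 0.14 for Tpm1 and 0.60 ± 0.14 for Tpm3. The least certain of these were Lmod1 (adjusted p = 0.045) and Acta1 (adjusted p = 0.0394). With all 12 arrays, 0 of the 8 were called, at an adjusted p of 0.997. Leaving out this pair of arrays thus decides every one of these calls.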

How the results depend on the processing

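For siRNA-140 minus siRNA-96, the alternatives chosen from the labels, with adjusted p-values, called 0 members, with a smallest adjusted p of 0.363, and the unadjusted threshold passed 1014 probe sets and 0 members. Leaving out siRNA-140 replicate 3 and siRNA-96 replicate 1, chosen after seeing the data, gave 1743 probe sets and 5 members, or 4043 and 13 with the anti-miR arrays in the model, and a median of -0.30 in both. Leaving out single arrays moved the members' median between -0.1958 and -0.0075, at 0 calls. Of the 36 members, 16 kept 1 sign under the alternatives and 20 changed sign with no call. In the anti-miR comparison, the unadjusted threshold passed 2148 probe sets, the other alternatives called 0 with a smallest member adjusted p of 0.665, and leaving out single arrays moved the median between -0.0175 and 0.0117, so its sign is not settled. For the difference between experiments, leaving out the 2 arrays gave 8 members (22.2%, beside 4.41% of probe sets). The replicate block called 0 probe sets in either experiment, and the labels do not say whether the numbers pair the samples. Signal over background could not be read from the deposited values, so the 4 dimmest members have little resolution.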
